A study of Mus musculus with 25 samples.

Results

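The 8 genes described here mark the naive and memory states of T cells and guide their recirculation. They are the homing receptors Ccr7 and S1pr1 and the transcription factors Klf2, Foxo1, Tcf7, Lef1, Bach2 and Satb1. They were chosen by name and not by a measured value, though with earlier results of these data known. Their H3K27ac HiChIP signal was followed in splenic CD8+ T cells of C57BL/6J mice. In HiChIP, neighbouring DNA in the fixed nucleus is ligated and fragments carrying H3K27ac, a histone mark of active promoters and enhancers, are pulled down. The sequenced read pairs are then counted as contacts between 2 bins of the genome. A pair of 1 kb bins was assigned to a gene when either bin overlapped the gene's span in mm10 extended by 5 kb on each side. By this rule 2174 of the 121571 pairs listed in any library belonged to the 8 genes. Of the 28033 pairs listed in all 6 libraries (shared pairs), 462 belonged to them, as did 174 of the 18580 bins that anchored a listed pair in all 6 libraries (shared bins).

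Of the study's 25 samples, 19 from ChIP-seq were left out here. The 6 HiChIP libraries covered 3 genotypes, each with and without IL-2. Intron deletion cells carried a deletion in the intronic part of the super-enhancer of Il2ra, the gene for the IL-2 receptor subunit CD25. Upstream deletion cells carried a deletion in its upstream part. Wild-type (WT) cells carried neither deletion. All 6 were pre-activated CD8+ T cells, which the labels' protocol describes as cultured with IL-2 or antibodies to CD3 and CD28 for 2 days and rested for 4 h. They then received IL-2 or were left without it (control). Each genotype and treatment had 1 library, and nothing in the labels says that libraries came from separate animals or cultures. The deposited tables are marked as replicate 2, and no other replicate was analysed here. P-values therefore rest on how far the IL-2 change differed between genotypes, with information shared across features. That spread may be technical or a difference in response between genotypes, and it is not a spread between replicates. Neither the coordinates of the deletions, nor the number of mutant lines, nor how much IL-2 these cells received and for how long is given in the labels.

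Naive and central memory T cells circulate between blood and lymph nodes. Ccr7 is the chemokine receptor that brings them into lymph nodes, and S1pr1 is the sphingosine-1-phosphate receptor that lets them leave. Klf2 is a transcription factor that activates S1pr1, and Foxo1 is a forkhead factor, restrained by Akt, that keeps Klf2 and Ccr7 expressed. Tcf7 and Lef1 encode HMG-box factors of the Wnt pathway that sustain naive and stem-like memory cells. Bach2 is a repressor that holds back effector differentiation, and Satb1 is a chromatin organiser of T cell development. IL-2 acts through STAT5 and through PI3K and Akt, and strong IL-2 signals favour effector over memory fate.

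The libraries differed in depth. They listed 38879 to 94922 pairs and 1314137 to 3596995 contacts, with the intron deletion control library lowest and the WT IL-2 library highest. As a check of the labels, the targeted gene Il2ra had 6.32 listed pairs per 10000 with IL-2 and 3.60 in control in intron deletion cells. It had 18.8 with IL-2 and 12.5 in control in upstream deletion cells, and 32.9 with IL-2 and 27.9 in control in WT cells. All 7 CD8+ T cell markers had listed pairs, as did 2 of 6 B cell, 2 of 3 NK cell, 3 of 6 myeloid, 4 of 4 CD4+ or regulatory T cell and 0 of 3 erythroid markers. Ms4a1, Cd22, Pax5, Ncr1, Lyz2, Csf1r and Itgam had none. The summed contacts of the CD8+ T cell markers took 1.48% to 1.55% of listed contacts in intron deletion libraries, 0.934% to 1.11% in upstream deletion libraries and 0.978% to 1.08% in WT libraries. Those of the 2 listed B cell markers, Cd79a and Cd79b, took 0.156% to 0.203% in intron deletion libraries, 0.113% to 0.140% in upstream deletion libraries and 0.0937% to 0.115% in WT libraries. The part of these shifts in the results below was not tested. In bulk libraries, fewer cells of a type and less signal per cell cannot be told apart.

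In intron deletion cells the chromatin contacts of Tcf7, S1pr1, Lef1 and Bach2 were higher than in WT cells. Those of Ccr7, Foxo1 and Satb1 did not pass the test. In H3K27ac coverage Satb1 passed as lower and Foxo1 as higher. Contacts were summed over the shared pairs of each gene window and tested with edgeR's quasi-likelihood test on all 3522 measured windows, and a call needed a Benjamini-Hochberg adjusted p under 0.05. Of the 7 genes measured, 4 were called higher and 0 lower, against 17.8% of all windows called in either direction and 9.45% called higher. The median log2 change was 0.24 over the 7 genes and -0.01 over all windows. DESeq2 called 225 windows and only Tcf7 of the 7 genes, no gene passed with unlisted pairs taken as 0, and 1 to 5 passed with a library left out. Klf2 had no shared pair and could not be tested. In coverage, the reads over a gene's shared bins, 5 genes (S1pr1, Tcf7, Lef1, Bach2 and Foxo1) were higher and 1 (Satb1) lower, against 40.3% of 4371 features called, 20.2% higher and 20.1% lower. Contacts were not adjusted for the coverage of their bins, so contacts and coverage are not separate evidence. The part of coverage in the contact changes was not tested.

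No gene passed when upstream deletion cells were compared with WT cells. In contacts, 0 of 7 were called, against 0.17% of windows, although 441 windows had an unadjusted p under 0.05. DESeq2 called 2 windows, neither of these genes. All 7 log2 changes were positive, with a median of 0.16 against 0.00 over all windows. In coverage 0 of 7 genes and 0 of 4371 features were called, 1059 features had an unadjusted p under 0.05, and DESeq2 called 194, Satb1 among them (adjusted p = 0.000105). No gene is singled out from the fits without an intron deletion library, since calls over all features moved widely when a library was left out.

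No gene passed when IL-2 was compared with control over the 3 genotypes. In contacts, 0 of 7 were called, against 3.55% of windows, 790 windows had an unadjusted p under 0.05, and DESeq2 called 54 windows and none of the 7 genes. The largest changes were those of Tcf7, -0.37 ± 0.11 on the log2 scale (SE, adjusted p = 0.0786), and S1pr1, -0.26 ± 0.09 (adjusted p = 0.114). The median was -0.10 over the 7 genes and 0.01 over all windows. In coverage 0 of 4371 features were called and 1789 had an unadjusted p under 0.05, while DESeq2 called 821, with S1pr1 (adjusted p = 0.0248) and Tcf7 (adjusted p = 0.000564) among them. Without either intron deletion library, the log2 IL-2 change in contacts was -0.61 for Tcf7 and -0.19 for Ccr7, against -0.37 and -0.10 with all libraries. These values rest on the upstream deletion and WT libraries and are given for these genes only. Calls over all windows moved widely when a library was left out, so no gene is called from those fits.

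**Figure D1:**
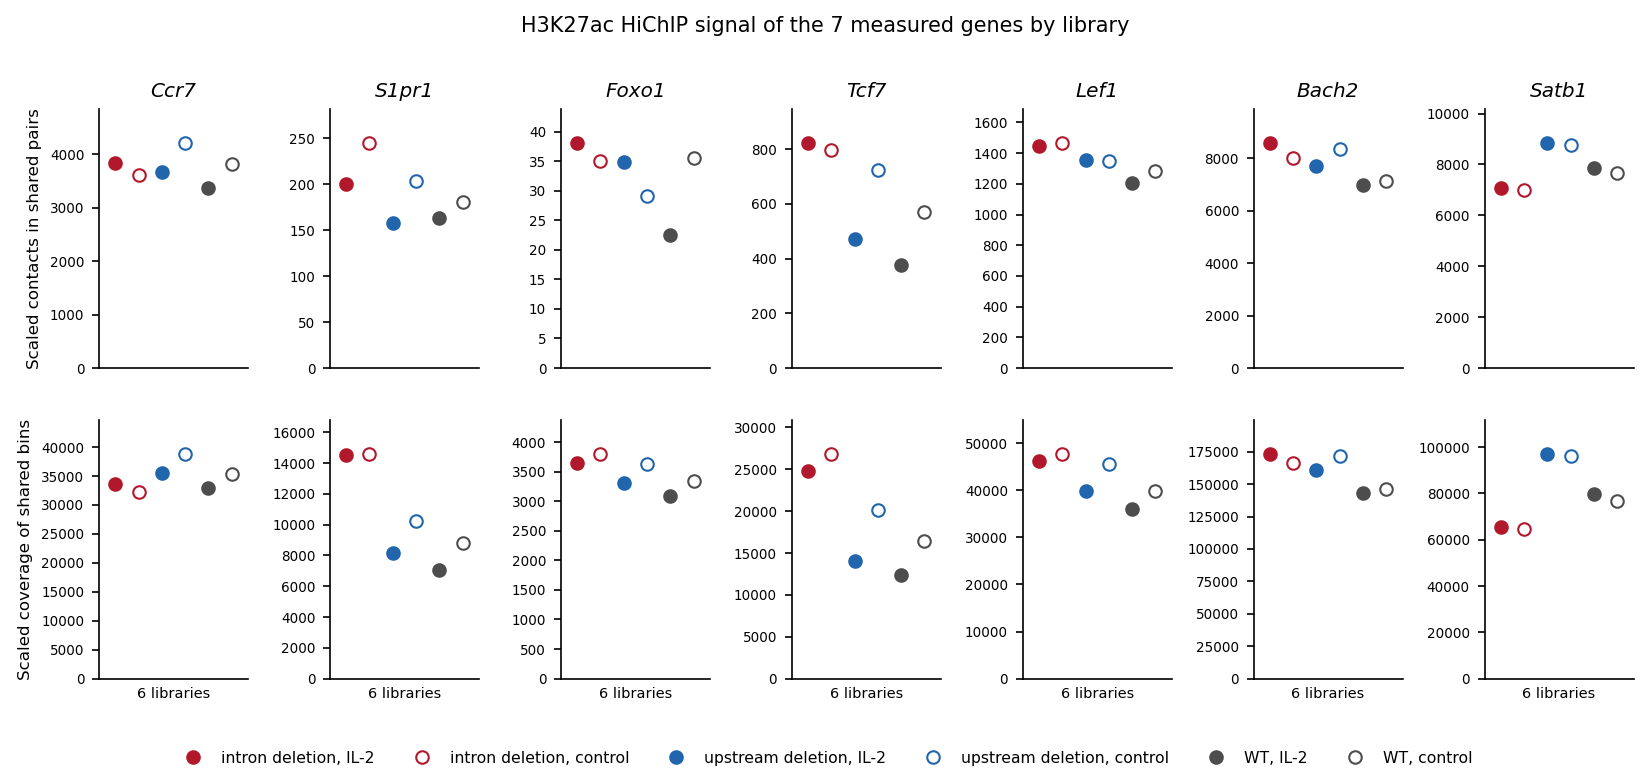
Summed contacts of shared pairs (top) and summed coverage of shared bins (bottom) for each measured gene, in reads scaled to a common library size. Each point is 1 library, filled with IL-2 and open in control. Both intron deletion points stand above the other 4 for S1pr1, Tcf7 and Lef1 coverage and below them for Satb1.

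**Figure D2:**
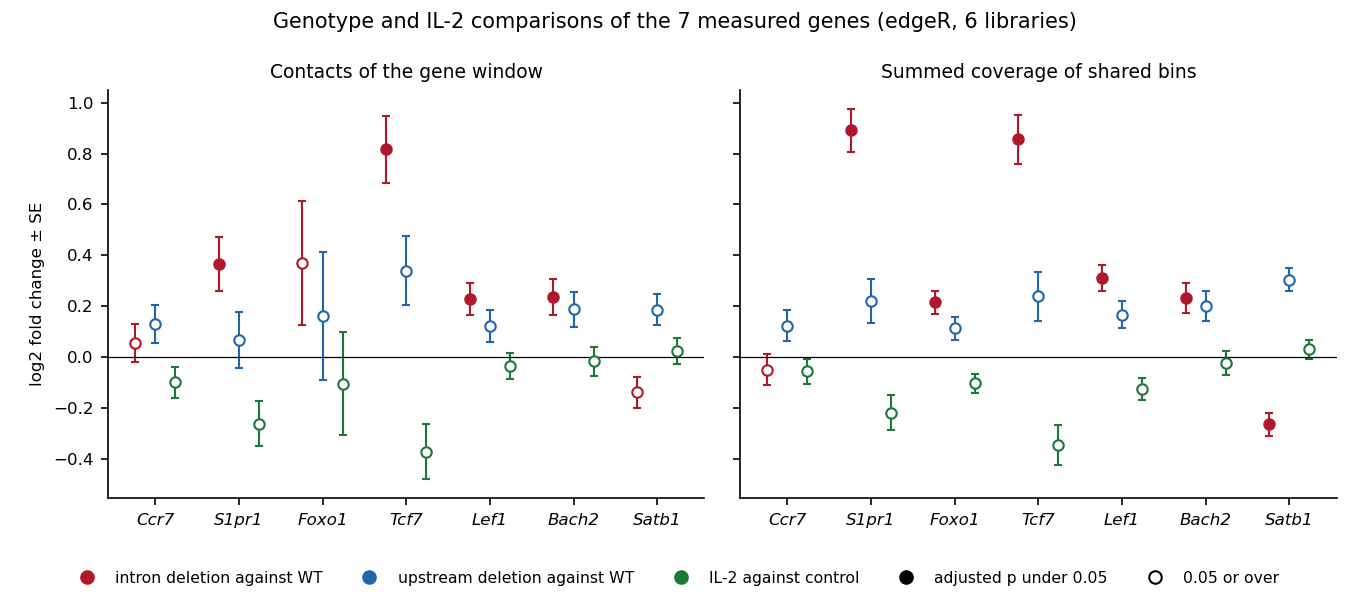
The log2 fold change (± SE) of contacts and coverage of each gene in the 3 comparisons, from edgeR's additive fit over 6 libraries. Filled points have an adjusted p under 0.05, and each of them belongs to the comparison of intron deletion with WT cells, with Tcf7 at 0.82 in contacts and S1pr1 at 0.89 in coverage.

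Ccr7 lies at chr11:99144199-99155077 and had 223 listed pairs, of which 75 were shared. Its scaled contacts, counts divided by each library's relative effective size, were 3831 with IL-2 and 3616 in control in intron deletion cells, 3669 with IL-2 and 4213 in control in upstream deletion cells, and 3373 with IL-2 and 3825 in control in WT cells. The genotypes overlapped. The log2 change in intron deletion against WT cells was 0.05 ± 0.08 (SE, edgeR adjusted p = 0.654), and it passed only without the intron deletion control library (0.19, adjusted p = 0.00781). In coverage the change was -0.05 (adjusted p = 0.527).

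Single parts of Ccr7 did not move together. Counts of single pairs and bins are given as deposited, without scaling, while their changes come from the scaled fit. The bin at chr11:99155001-99156000, which holds the higher-coordinate end of the gene, was higher in coverage in intron deletion than in WT cells (log2 change 0.25, edgeR adjusted p = 0.0211). The bins that start at 99150001, 99151001 and 99152001, inside the gene, were lower (-0.40, -0.24 and -0.22, adjusted p = 0.00409, 0.00704 and 0.0236). These 4 bins were the calls among 15 shared bins, against 46.2% of all shared bins called. Of the 75 shared pairs, 4 were higher in intron deletion cells and 0 lower, a smaller share than the 6.27% of all pairs called higher. All 4 had the bin at 99155001 as an anchor. The first joined it to the bin at 99166001 over 11 kb, with 103 contacts with IL-2 and 81 in control in intron deletion cells, 52 with IL-2 and 62 in control in upstream deletion cells, and 65 with IL-2 and 64 in control in WT cells. Both intron deletion counts were above the other 4 (log2 change 0.80 ± 0.19, adjusted p = 0.000635). The other 3 ended at 99168001, 99170001 and 99172001, with log2 changes of 0.66, 0.56 and 0.86. The Ccr7 pair with the most contacts, from 99151001 to 99170001, had 114 with IL-2 and 71 in control in intron deletion cells, 109 with IL-2 and 110 in control in upstream deletion cells, and 119 with IL-2 and 109 in control in WT cells. Its change was -0.02.

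Over all 462 shared pairs of the genes, 31 were called in intron deletion against WT cells, 22 higher and 9 lower, against 11.3% of the 28033 pairs tested, 6.27% higher and 5.03% lower. In upstream deletion against WT cells 1 was called, higher, against 0.0785% of pairs called and 0.0464% called higher. With IL-2 against control 6 were called, 4 higher and 2 lower, against 3.3% of pairs, 2.56% higher and 0.731% lower. The 31 calls became fewer without the intron deletion IL-2, the WT IL-2 or the WT control library. The 6 IL-2 calls and the 1 upstream deletion call did not hold without any 1 of the upstream deletion or WT libraries. Both grew in number without either intron deletion library. Calls over all pairs moved widely too when a library was left out, so these moves are not read as particular to these genes. DESeq2 called 0 pairs of these genes in each comparison.

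**Figure D3:**
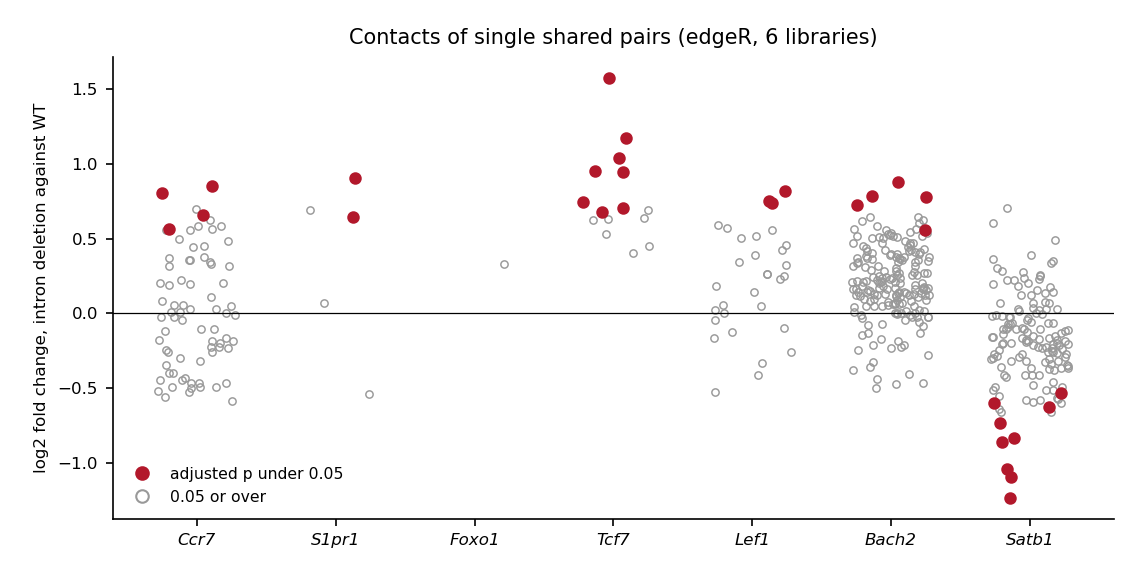
The log2 fold change of every shared pair in intron deletion against WT cells, 1 point a pair, with those at an adjusted p under 0.05 filled in red. All 15 Tcf7 pairs lie above 0, up to 1.58, and the 9 called Satb1 pairs lie below 0, down to -1.24.

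S1pr1 lies at chr3:115710433-115715055 and had 80 listed pairs, of which 5 were shared. Its scaled coverage over 4 shared bins was 14499 with IL-2 and 14624 in control in intron deletion cells, 8184 with IL-2 and 10260 in control in upstream deletion cells, and 7039 with IL-2 and 8795 in control in WT cells. Both intron deletion libraries stood above the other 4. The coverage was 1.85-fold that of WT cells (log2 change 0.89 ± 0.09, SE, edgeR adjusted p = 0.00221), and 0.801% of the 4371 features had a higher change. It passed with each library left out in turn (log2 change 0.73 to 1.04). The bin at chr3:115711001-115712000, inside the gene, counted 3936 reads with IL-2 and 2775 in control in intron deletion cells, 1695 with IL-2 and 1975 in control in upstream deletion cells, and 1848 with IL-2 and 1845 in control in WT cells. Its change in intron deletion cells was 1.22 ± 0.07 (adjusted p = 0.00031). All 4 shared bins were called higher, against 46.2% of all shared bins called and 21.7% called higher.

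The contacts of S1pr1 were few. Scaled contacts over the 5 shared pairs were 201 with IL-2 and 245 in control in intron deletion cells, 158 with IL-2 and 204 in control in upstream deletion cells, and 163 with IL-2 and 181 in control in WT cells. The intron deletion IL-2 value lay below the upstream deletion control value, so the genotypes overlapped. The change in intron deletion against WT cells was 0.37 ± 0.11 (SE, edgeR adjusted p = 0.0352), and it did not pass in DESeq2 (0.349). Nor did it pass without the intron deletion IL-2 library (0.0677), the intron deletion control library (0.0521), the upstream deletion IL-2 library (0.0577), the WT IL-2 library (0.124) or the WT control library (0.349). Of the 5 shared pairs 2 were higher, both long, against 6.27% of all pairs called higher. From the bin at 115715001, which holds the higher-coordinate gene end, to 115887001, 172 kb away, there were 41 contacts with IL-2 and 37 in control in intron deletion cells, 22 with IL-2 and 26 in control in upstream deletion cells, and 27 with IL-2 and 24 in control in WT cells (log2 change 0.90, adjusted p = 0.00786). Its neighbour at 115888001, which lies in Dph5, had 56 with IL-2 and 54 in control in intron deletion cells, 32 in each upstream deletion library, and 48 with IL-2 and 38 in control in WT cells (0.65, adjusted p = 0.044). In both pairs the intron deletion libraries were the highest. A short pair, from 115715001 to 115728001, was lower with IL-2 than in control over the genotypes (-0.66, adjusted p = 0.0372), with 28 contacts against 30 in intron deletion cells, 25 against 51 in upstream deletion cells and 49 against 56 in WT cells.

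Listed pairs of S1pr1 numbered 77 with IL-2 and 16 in control in intron deletion cells, 8 with IL-2 and 14 in control in upstream deletion cells, and 17 in each WT library. Per 10000 listed pairs of the library these were 10.6 and 4.12 in intron deletion cells, 1.31 and 2.49 in upstream deletion cells, and 1.79 and 2.34 in WT cells, each with IL-2 and then in control. The intron deletion IL-2 library thus listed more S1pr1 pairs than any other. Pairs of 100 kb or more numbered 29 with IL-2 and 6 in control in intron deletion cells, 4 in each upstream deletion library, and 7 with IL-2 and 5 in control in WT cells. A pair below 20 contacts is not listed, so these numbers move with depth, and they have no test.

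Klf2 lies at chr8:72319062-72321654. In all it had 5 listed pairs, each joining a bin at the gene to the bin at 72354001 in Eps15l1, 31 to 35 kb away. All 5 were listed in the intron deletion IL-2 library, with 210 contacts in all (95% exact Poisson interval 183 to 240), and 2 in the intron deletion control library, with 70 contacts (54.6 to 88.4). The upstream deletion IL-2 library listed none and the upstream deletion control library 1 with 20 contacts. Neither WT library listed any, although the WT IL-2 library was the deepest. The strongest pair, from 72322001, had 56 contacts with IL-2 and 28 in control in intron deletion cells and 20 in upstream deletion control cells. An unlisted pair can hold up to 19 contacts, so no ratio was formed, and the intervals cover counting error only.

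Foxo1 lies at chr3:52268337-52350109 and had 10 listed pairs, 1 of them shared. That pair, from 52262001 to 52268001, had 41 contacts with IL-2 and 27 in control in intron deletion cells, 33 with IL-2 and 26 in control in upstream deletion cells, and 28 with IL-2 and 38 in control in WT cells. The genotypes overlapped, and the change in intron deletion against WT cells, 0.37 ± 0.24 as a gene window, did not pass (SE, edgeR adjusted p = 0.326). The bin at chr3:52268001-52269000, which holds the RefSeq start, counted 3854 reads with IL-2 and 2786 in control in intron deletion cells, 3061 with IL-2 and 3265 in control in upstream deletion cells, and 3966 with IL-2 and 3667 in control in WT cells. As the gene's only shared bin its coverage passed among gene features (0.21 ± 0.05, adjusted p = 0.0179), but not among single bins (0.16, adjusted p = 0.0501), and not without the WT IL-2 library (0.238) or the WT control library (0.192).

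Tcf7 lies at chr11:52246527-52283383 and had 164 listed pairs, of which 15 were shared. Its scaled contacts were 823 with IL-2 and 797 in control in intron deletion cells, 470 with IL-2 and 725 in control in upstream deletion cells, and 377 with IL-2 and 570 in control in WT cells. Both intron deletion libraries were above the other 4, and within the other genotypes the IL-2 library was the lower. Contacts in intron deletion cells were 1.76-fold those in WT cells (log2 change 0.82 ± 0.13, SE, edgeR adjusted p = 0.00167). The call held with each library left out in turn (log2 change 0.48 to 1.14) and in DESeq2, but not with unlisted pairs taken as 0 (1.94, adjusted p = 0.0584). Against upstream deletion cells the change was 0.48 ± 0.13 (adjusted p = 0.0413), where 9.51% of windows were called.

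Tcf7 coverage moved the same way. Over its 11 shared bins scaled coverage was 24759 with IL-2 and 26882 in control in intron deletion cells, 14093 with IL-2 and 20115 in control in upstream deletion cells, and 12416 with IL-2 and 16461 in control in WT cells. The 2 intron deletion libraries again did not overlap with the rest. The change against WT cells was 0.86 ± 0.10 (SE, edgeR adjusted p = 0.00321), and 0.915% of the 4371 features had a higher change. All 11 bins were called higher, by 0.41 to 1.28, against 46.2% of all shared bins called and 21.7% called higher. The largest was at chr11:52276001-52277000, with 2212 reads with IL-2 and 1712 in control in intron deletion cells, 771 with IL-2 and 1143 in control in upstream deletion cells, and 961 with IL-2 and 1138 in control in WT cells (1.28 ± 0.11, adjusted p = 0.000599). The gene's extended window also reaches Skp1, but each shared bin lay at 52266001 or beyond, outside Skp1.

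Of the 15 shared Tcf7 pairs 8 were higher in intron deletion than in WT cells, against 6.27% of all pairs, and all 15 changes were positive. The largest, from 52276001 to 52281001, had 57 contacts with IL-2 and 45 in control in intron deletion cells, 25 with IL-2 and 42 in control in upstream deletion cells, and 20 with IL-2 and 22 in control in WT cells (log2 change 1.58 ± 0.25, SE, edgeR adjusted p = 1.35e-07). The pair from 52274001 to 52279001 had 79 with IL-2 and 50 in control in intron deletion cells, 25 with IL-2 and 39 in control in upstream deletion cells, and 29 with IL-2 and 41 in control in WT cells (1.17, adjusted p = 3.62e-05). In both, the 2 intron deletion counts were the highest. The pair with the most contacts, from 52266001 to 52271001, also passed (0.71, adjusted p = 0.0047). With IL-2, 1 pair was lower than in control, from 52275001 to 52281001, with 59 contacts against 54 in intron deletion cells, 31 against 49 in upstream deletion cells and 30 against 54 in WT cells (-0.68, adjusted p = 0.0209). Unscaled, the IL-2 count was the lower in upstream deletion and WT cells, and the higher in intron deletion cells, whose IL-2 library was the deeper.

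Listed Tcf7 pairs numbered 135 with IL-2 and 78 in control in intron deletion cells, 23 with IL-2 and 60 in control in upstream deletion cells, and 44 with IL-2 and 61 in control in WT cells. The share of each library's pairs was 18.6 and 20.1 per 10000 in intron deletion cells, 3.76 and 10.7 in upstream deletion cells, and 4.64 and 8.39 in WT cells, each with IL-2 and then in control. The intron deletion control library thus listed more Tcf7 pairs than the deeper upstream deletion and WT libraries.

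Lef1 lies at chr3:131110297-131224357 and had 182 listed pairs, of which 31 were shared. Its scaled contacts were 1447 with IL-2 and 1466 in control in intron deletion cells, 1355 with IL-2 and 1350 in control in upstream deletion cells, and 1203 with IL-2 and 1284 in control in WT cells. The 3 genotypes did not overlap. The change in intron deletion against WT cells was 0.23 ± 0.06 (SE, edgeR adjusted p = 0.026), and it did not pass without the upstream deletion IL-2 library (0.0678), the WT IL-2 library (0.494) or the WT control library (0.171), in DESeq2 (0.22), or with unlisted pairs taken as 0 (0.181) or as 19 (0.39). Coverage was higher by 0.31 ± 0.05 (adjusted p = 0.00921), though not without the WT IL-2 library (0.153) or the WT control library (0.119).

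At Lef1 the bin of the first start did not pass in intron deletion against WT cells, and that of an internal start did. RefSeq (GRCm38.p6) gives 4 Lef1 starts, and the 250 bases upstream of 2 of them are shown because their bins differed in coverage. Capitals mark matches, on either strand, to the core motifs searched, which were GTAAACA for FOXO, CTTTGA for TCF/LEF, CACCC for KLF and, for STAT, TTC and GAA with 3 bases between them. The first sequence, chr3:131110047-131110296 on the plus strand, lies before the start at 131110297 and holds 3 KLF matches. The second, chr3:131156044-131156293 on the plus strand, lies before the start at 131156294 and holds 2 TCF/LEF matches and 1 KLF match.
Lef1 first start: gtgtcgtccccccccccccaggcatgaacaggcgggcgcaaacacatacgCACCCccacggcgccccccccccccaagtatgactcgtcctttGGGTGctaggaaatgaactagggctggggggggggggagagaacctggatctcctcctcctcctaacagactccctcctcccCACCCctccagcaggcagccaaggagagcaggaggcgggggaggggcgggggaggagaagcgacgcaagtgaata
Lef1 internal start: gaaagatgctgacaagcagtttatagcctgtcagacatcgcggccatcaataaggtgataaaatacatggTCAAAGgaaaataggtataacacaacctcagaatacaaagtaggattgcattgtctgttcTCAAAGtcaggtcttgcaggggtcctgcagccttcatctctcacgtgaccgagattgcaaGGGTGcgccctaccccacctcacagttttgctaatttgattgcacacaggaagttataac
Of 32851 RefSeq promoters, 13.8% held a TCF/LEF match, 52.0% a KLF match, 3.17% a FOXO match and 7.02% a STAT match, and a match is a description of the letters only.

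The bin of the first Lef1 start, chr3:131110001-131111000, counted 1439 reads with IL-2 and 1013 in control in intron deletion cells, 1124 with IL-2 and 1420 in control in upstream deletion cells, and 1414 with IL-2 and 1482 in control in WT cells. These overlapped once the libraries were scaled, and the change in intron deletion against WT cells was 0.12 (edgeR adjusted p = 0.325). The bin of the internal start, chr3:131156001-131157000, counted 2145 reads with IL-2 and 1546 in control in intron deletion cells, 1017 with IL-2 and 1478 in control in upstream deletion cells, and 1201 with IL-2 and 1394 in control in WT cells. Both intron deletion counts exceeded the other 4, and the change was 0.88 (adjusted p = 0.00238). Over the 28 shared bins, 17 were higher and 2 lower in intron deletion cells, against 46.2% of all shared bins called, 21.7% higher and 24.5% lower. The largest rise was at 131126001 (0.96) and the largest fall at 131168001 (-0.47), both inside the gene.

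Against 6.27% of all pairs called higher, 3 of the 31 shared Lef1 pairs were higher in intron deletion cells. All joined the bin at 131112001 near the start to bins 43, 44 and 47 kb into the gene, at 131155001, 131156001 and 131159001, the second being the bin of the internal start. That pair had 58 contacts with IL-2 and 31 in control in intron deletion cells, 37 in each upstream deletion library, and 28 with IL-2 and 33 in control in WT cells (log2 change 0.82 ± 0.25, SE, edgeR adjusted p = 0.0146). The intron deletion control count was not above the rest before scaling. The others changed by 0.74 (adjusted p = 0.0215) and 0.75 (adjusted p = 0.0207). The Lef1 pair with the most contacts, from 131112001 to 131117001, changed by 0.26 (adjusted p = 0.33).

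**Figure D4:**
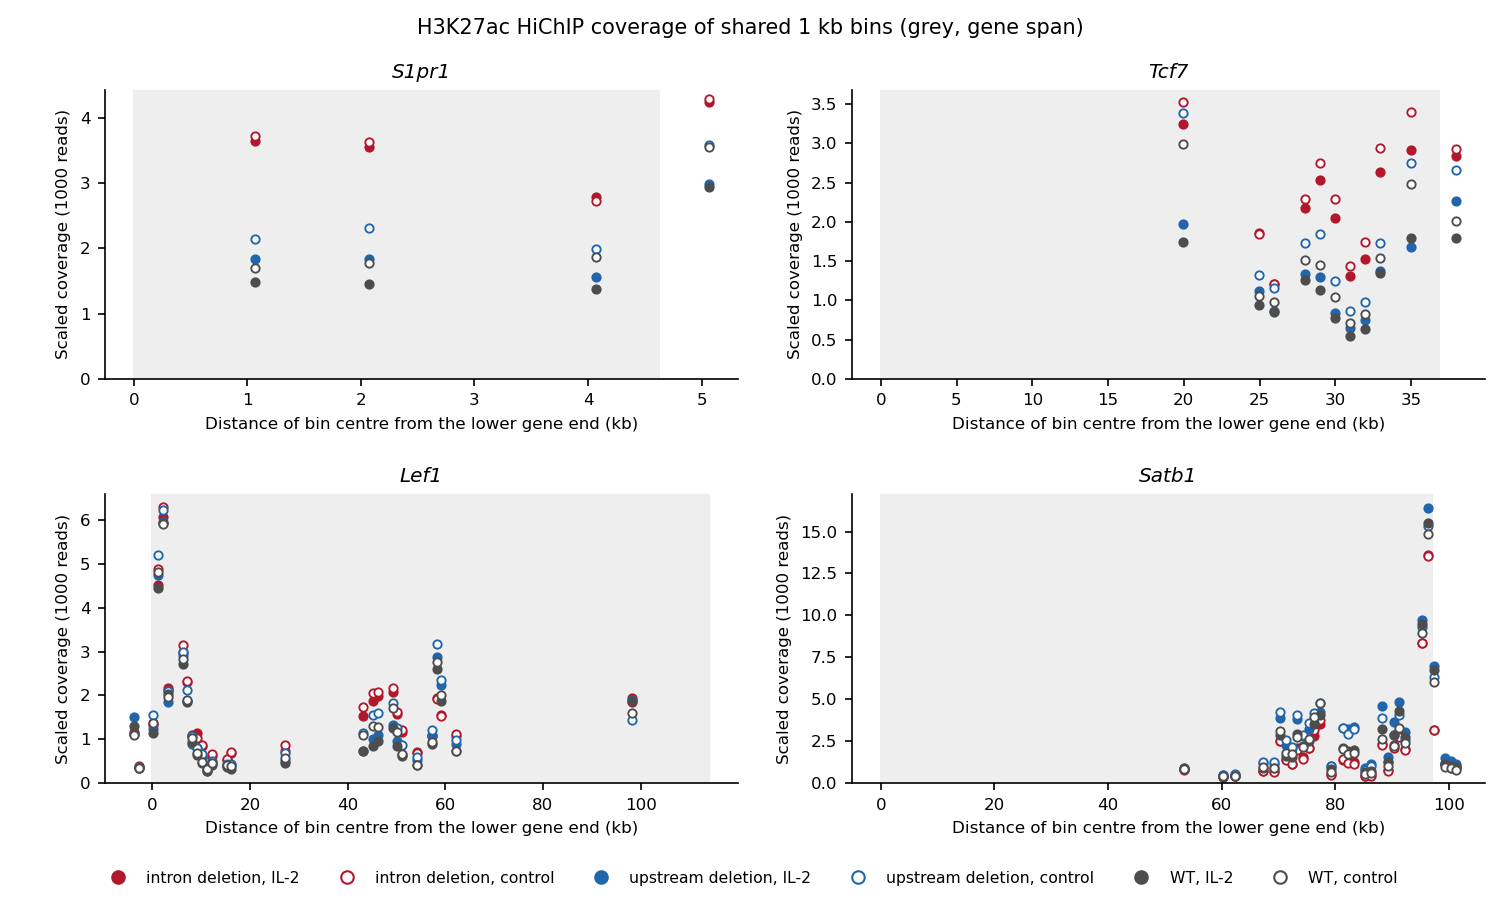
Scaled coverage of each shared bin against the distance of its centre from the lower-coordinate gene end, for 4 genes, with 1 point a library, filled with IL-2 and open in control. The intron deletion points lie above the rest in all 4 S1pr1 bins, in most Tcf7 bins and around the internal start of Lef1, and below the rest in the bins that hold the higher-coordinate end of Satb1.

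Bach2 lies at chr4:32238413-32586109 and had the most listed pairs of the 8 genes, 926, of which 190 were shared and 897 had both bins in the gene's own window. Its scaled contacts were 8590 with IL-2 and 8012 in control in intron deletion cells, 7706 with IL-2 and 8356 in control in upstream deletion cells, and 6966 with IL-2 and 7143 in control in WT cells. Both WT libraries were the lowest, and the deletion genotypes overlapped. The change in intron deletion against WT cells was 0.24 ± 0.07 (SE, edgeR adjusted p = 0.036). It did not pass without the intron deletion IL-2 library (0.0717), the upstream deletion IL-2 library (0.0939), the upstream deletion control library (0.0562), the WT IL-2 library (0.469) or the WT control library (0.341), in DESeq2 (0.101), or with unlisted pairs taken as 0 (0.158) or as 19 (0.46). In upstream deletion against WT cells the change was 0.19 ± 0.07 (adjusted p = 0.293).

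The Bach2 signal was spread along the gene. Of 85 shared bins 35 were higher and 1 lower in intron deletion than in WT cells, against 46.2% of all bins called, 21.7% higher and 24.5% lower, with the largest rise at 32388001 (log2 change 0.78) and the fall at 32423001 (-0.36). The bin with the most reads, at 32252001, changed by 0.17 (edgeR adjusted p = 0.0571). In upstream deletion cells 2 bins were higher, at 32307001 (0.56) and 32362001 (0.40). Summed coverage was higher by 0.23 ± 0.06 in intron deletion cells (adjusted p = 0.0273), and not without the WT IL-2 library (0.327) or the WT control library (0.268). Of 190 shared pairs 5 were higher in intron deletion cells, by 0.56 to 0.88, a smaller share than the 6.27% of all pairs. The largest, from 32278001 to 32291001, had 48 contacts with IL-2 and 28 in control in intron deletion cells, 26 with IL-2 and 25 in control in upstream deletion cells, and 25 in each WT library (0.88, adjusted p = 0.0111). With IL-2, 1 pair was higher than in control, from 32255001 to 32290001, with 58 contacts against 23 in intron deletion cells, 47 against 24 in upstream deletion cells and 50 against 21 in WT cells (0.92 ± 0.21, SE, adjusted p = 0.0017). In this pair every IL-2 count was above every control count, and the IL-2 library was also the deeper in each genotype, for which the fit scales.

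Satb1 lies at chr17:51736187-51833290 and had 584 listed pairs, of which 145 were shared and 266 spanned 100 kb or more. Unlike Tcf7 and S1pr1, it was lower in intron deletion than in WT cells in coverage. Scaled coverage over its 30 shared bins was 65564 with IL-2 and 64615 in control in intron deletion cells, 97236 with IL-2 and 96052 in control in upstream deletion cells, and 79662 with IL-2 and 76854 in control in WT cells. The 3 genotypes did not overlap, with intron deletion lowest and upstream deletion highest. The change was -0.27 ± 0.05 in intron deletion against WT cells (SE, edgeR adjusted p = 0.00927), and it did not pass without the WT IL-2 library (0.218) or the WT control library (0.163). In upstream deletion against WT cells it was 0.30 ± 0.05 (adjusted p = 0.0732), and in intron deletion against upstream deletion cells -0.57 ± 0.05 (adjusted p = 0.00219), where 31.5% of features were called.

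Satb1 contacts followed the same order. They were 7081 with IL-2 and 6991 in control in intron deletion cells, 8844 with IL-2 and 8782 in control in upstream deletion cells, and 7855 with IL-2 and 7646 in control in WT cells, as scaled values. The genotypes did not overlap. The change in intron deletion against WT cells was -0.14 ± 0.06 and did not pass (SE, edgeR adjusted p = 0.142), whereas that in intron deletion against upstream deletion cells was -0.32 ± 0.06 (adjusted p = 0.00696).

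The fall in intron deletion cells was largest at the end of the gene that holds its first start. The bin chr17:51833001-51834000 counted 3427 reads with IL-2 and 2354 in control in intron deletion cells, 6429 with IL-2 and 5840 in control in upstream deletion cells, and 8433 with IL-2 and 6561 in control in WT cells. Both intron deletion counts were well below the other 4 (log2 change -1.01 ± 0.06, SE, edgeR adjusted p = 0.000293). The neighbouring bin at 51832001, which had the most reads of the gene, changed by -0.16 (adjusted p = 0.0241). Of the 30 shared bins 23 were lower in intron deletion cells and 0 higher, against 24.5% of all shared bins called lower and 21.7% higher. The 250 bases before the start at 51833290, chr17:51833291-51833540 on the minus strand (RefSeq, GRCm38.p6), are shown because they lie in the bin that fell most. They hold 2 KLF matches, in capitals, and none of the other motifs named for Lef1.
Satb1 first start: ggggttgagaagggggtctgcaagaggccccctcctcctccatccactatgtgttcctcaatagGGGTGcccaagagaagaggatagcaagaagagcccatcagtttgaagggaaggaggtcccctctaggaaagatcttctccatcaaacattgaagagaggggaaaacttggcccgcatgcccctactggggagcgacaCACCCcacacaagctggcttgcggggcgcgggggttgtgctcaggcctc

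In upstream deletion cells 10 of the 30 Satb1 bins were higher than in WT cells, all 30 changes were positive, and 12 of the 174 bins of the 8 genes were called, all higher, against 1.69% of all shared bins called and 1.21% called higher. The largest rise was at 51819001, with 3081 reads with IL-2 and 2957 in control in upstream deletion cells, and 2435 with IL-2 and 1941 in control in WT cells (log2 change 0.82 ± 0.06, SE, edgeR adjusted p = 0.016). The same bin was lower in intron deletion than in WT cells, with 1351 reads with IL-2 and 859 in control in intron deletion cells (-0.63 ± 0.07, adjusted p = 0.00102). The 12 calls did not hold without any 1 of the upstream deletion or WT libraries, and numbered 19 in DESeq2. They grew in number without either intron deletion library, but calls over all bins also moved widely when a library was left out. In intron deletion against WT cells 97 of the 174 bins were called, 68 higher and 29 lower. Of all shared bins 46.2% were called in that comparison, 21.7% higher and 24.5% lower. Fewer of the 174 were called without the WT IL-2 or the WT control library.

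Of the 145 shared Satb1 pairs 9 were lower in intron deletion than in WT cells and 0 higher, with 5.03% of all pairs called lower, so the number of lower pairs was near the background. The largest fall was over 337 kb, from 51832001 to 52169001, with 29 contacts with IL-2 and 22 in control in intron deletion cells, 53 with IL-2 and 43 in control in upstream deletion cells, and 89 with IL-2 and 57 in control in WT cells (log2 change -1.24 ± 0.25, SE, edgeR adjusted p = 4.15e-05). The pair from 51827001 to 51833001 had 43 with IL-2 and 33 in control in intron deletion cells, 75 with IL-2 and 73 in control in upstream deletion cells, and 119 with IL-2 and 79 in control in WT cells (-1.10, adjusted p = 1.26e-05). In both, the intron deletion counts were the lowest. The pair with the most contacts, from 51827001 to 51832001, changed by -0.07 (adjusted p = 0.803). In upstream deletion cells 1 pair was higher than in WT cells, from 51819001 to 51824001, with 90 contacts with IL-2 and 72 in control in upstream deletion cells, and 70 with IL-2 and 41 in control in WT cells (0.83, adjusted p = 0.0382).

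With IL-2, 3 of 145 shared Satb1 pairs were higher than in control over the genotypes, a smaller share than the 2.56% of all pairs. All 3 joined the bin at 51832001 to bins 241, 244 and 246 kb away, at 52073001, 52076001 and 52078001. None of those distant bins overlapped an annotated protein-coding gene. The pair to 52076001 had 63 contacts with IL-2 against 32 in control in intron deletion cells, 57 against 30 in upstream deletion cells and 67 against 30 in WT cells (log2 change 0.76 ± 0.20, SE, edgeR adjusted p = 0.00829). The pair to 52073001 changed by 0.82 (adjusted p = 0.00729) and that to 52078001 by 0.70 (adjusted p = 0.0119). In all 3 genotypes the IL-2 library was the higher, while the gene's summed contacts changed by 0.02.

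In WT and upstream deletion cells Tcf7 contacts were lower in the IL-2 than in the control library, and in intron deletion cells they were about level. On the log2 scale of scaled contacts, IL-2 over control was 0.05 in intron deletion cells, -0.63 in upstream deletion cells and -0.60 in WT cells. The difference of intron deletion cells from the other 2 genotypes was 0.66 ± 0.09 (SE, edgeR interaction test, adjusted p = 0.00445). That test has 1 residual degree of freedom, which comes from the upstream deletion and WT libraries, so the intron deletion response, 1 library over 1, is assumed to vary as theirs do. Ccr7 had 0.08 in intron deletion cells, -0.20 in upstream deletion cells and -0.18 in WT cells, a difference of 0.27 ± 0.06 (adjusted p = 0.0286). These were 2 of the 7 genes, both with a positive difference, against 3.8% of windows called and 2.53% called with a positive difference. With unlisted pairs taken as 0 neither passed (adjusted p = 0.286 for Tcf7 and 0.685 for Ccr7).

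In coverage the same test called 3 of 7 genes, all with a positive difference, against 28.2% of features called and 14% called with a positive difference. Tcf7 had an IL-2 change of -0.12 in intron deletion cells, -0.51 in upstream deletion cells and -0.41 in WT cells (difference 0.34 ± 0.06, SE, edgeR adjusted p = 7.48e-07). S1pr1 had -0.01 in intron deletion cells, -0.33 in upstream deletion cells and -0.32 in WT cells (0.31 ± 0.06, adjusted p = 5.23e-06). Ccr7 had 0.06 in intron deletion cells, -0.13 in upstream deletion cells and -0.10 in WT cells (0.18 ± 0.06, adjusted p = 0.00906). For S1pr1 contacts the difference over 5 shared pairs was -0.04 and did not pass (adjusted p = 0.944), and its sign depends on unlisted pairs, with 0.30 when they were taken as 19 and 1.89 when taken as 0. When upstream deletion or WT cells were set against the other genotypes in this way, 0 of 3522 windows passed, and 109 and 64 had an unadjusted p under 0.05. DESeq2 was not run for this test.

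**Figure D5:**
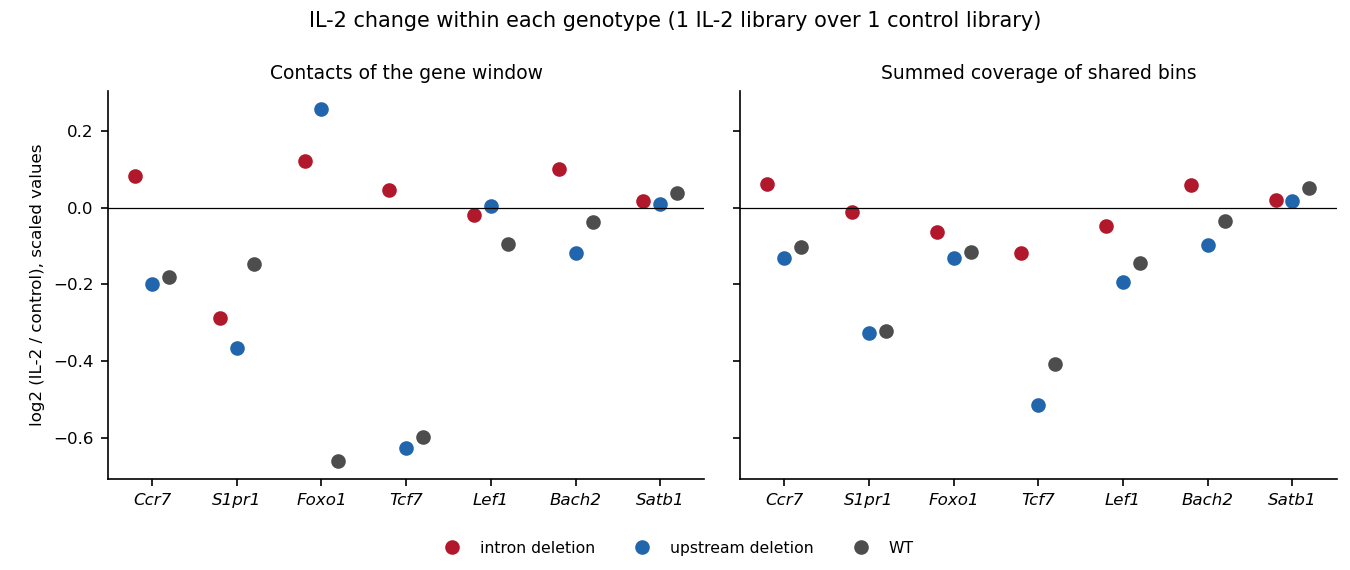
The log2 ratio of the IL-2 library to the control library within each genotype, for contacts (left) and coverage (right), 1 point a genotype. For Tcf7 the intron deletion point is near 0 in contacts, at 0.05, and the upstream deletion and WT points lie at -0.63 and -0.60.

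Other genes of recirculation were mixed. Of 23 homing and egress genes 15 were measured, and in intron deletion against WT cells 5 were higher and 1 lower, with a median log2 change of 0.05, against 17.8% of all windows called, 9.45% higher and 8.35% lower. The largest rises were those of Itgb7, an integrin chain of gut homing, which shares its pairs with Rarg (0.99), and the chemokine receptor Cxcr6 (0.88). Il7r, the IL-7 receptor chain of naive and memory cells, was lower (-0.34, edgeR adjusted p = 0.0436). With IL-2 against control, Ccr4 (0.69) and Il7r (0.41) were higher, against 2.33% of windows called higher. In upstream deletion cells 0 of the 15 were called.

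In intron deletion against WT cells 17.8% of all windows were called, 9.45% higher and 8.35% lower. In the related lists 3 of 21, 2 of 15 and 0 of 5 measured genes were called there, none of them a larger share. Of 28 other T cell transcription factors 21 were measured, and in intron deletion cells Klf3, which shares its pairs with Gm38457 (log2 change 0.51), and Ikzf1 (0.42) were higher and Tbx21, which encodes the effector factor T-bet, was lower (-0.32, edgeR adjusted p = 0.00792), with a median of 0.10 over the 21. Gata3 was higher in upstream deletion cells (0.50, adjusted p = 0.00634), against 0.142% of windows called higher. Of 20 genes of the PI3K, Akt and Foxo pathway 15 were measured, and in intron deletion cells the PI3K inhibitor Pik3ip1 (0.49) and Txnip (0.35) were higher, with a median of 0.14 over the 15. The cell cycle inhibitor Cdkn1b was lower with IL-2 (-0.31, adjusted p = 0.0409), against 1.22% of windows called lower. Of 10 partners of Tcf7 and Lef1 5 were measured and none was called in the 3 comparisons. Of the 7 CD8+ T cell markers Cd8a (0.56) and Cd8b1 (0.44) were higher in intron deletion cells, while Cd2 (0.20), Cd3d (0.08), Cd3e (0.10), Cd3g (0.08) and Cd5 (-0.19) did not pass. The B cell marker Cd79a was higher (0.39), and Klrb1c of NK cells (-0.22), Cd68 of myeloid cells (-0.21), Tyrobp, which shares its pairs with Hcst (0.21), and Ikzf2 (0.36) did not pass.

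The windows most alike to each gene across the 6 libraries, by Pearson correlation of log2 scaled contacts, are given as a description, since the 6 points share the depth and genotype of their libraries. Tcf7 was most like Clcf1 (0.996), Ang and Rnase4 (0.995) and Polg2 (0.993), and 85 windows had a correlation over 0.95. Ccr7 was most like Traip (0.998), S1pr1 like Ermp1 (0.986), Lef1 like Lrrc8c (0.987), Bach2 like Cep85 (0.983), Foxo1 like Exoc6 (0.976) and Satb1 like Ly6a (0.988). None of the 8 genes was among the 3 windows most like another of them.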

How the data were processed

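H3K27ac HiChIP was measured in 6 libraries of CD8+ T cells. The submitters' processing notes name CASAVA, HiC-Pro, Bowtie2 2.2.6 and the mouse build mm10 (GRCm38). The deposited tables have FitHiChIP's columns and give, as the authors' values, for each pair of 1 kb bins the contact count and, for each bin, a coverage count, neither normalised. No listed pair had under 20 contacts or lay closer than 5 kb, and the sources used here do not say whether a significance threshold was also applied. An unlisted pair was not taken as 0 in the main results.

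Counts of shared pairs, shared bins and their sums over gene windows (RefSeq genes of GRCm38.p6, 4532 genes in 3522 windows for contacts) were tested with edgeR 4.0.16 in R 4.3.3 (quasi-likelihood, TMM scaling, genotype and treatment as terms, 2 residual degrees of freedom, Benjamini-Hochberg adjustment over all features of a kind). Fold changes are deletion over WT and IL-2 over control, on the log2 scale. For single pairs the estimated spread was common to all pairs. Intron deletion and upstream deletion comparisons share the WT libraries, and all comparisons come from 1 fit. For the 3 IL-2 against 3 control libraries an exact permutation test could not give a p below 0.1, and below 0.25 with signs flipped within genotypes, so none was used. The fit was tested on simulated data. The alternatives were DESeq2 1.42.0 (size factors and test), other count filters and gene spans, unlisted pairs as 0 or 19, and each library left out. Alternatives for summed coverage, for the difference in IL-2 response and for single pairs and bins were added after seeing the data.

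All 8 genes are named, with the pairs of most contacts, those past the threshold (beyond 6, the largest changes), and the bins of most coverage and of largest change. The members, lists and rules were chosen with earlier results of these data known. RefSeq promoter sequences were matched by symbol for 6 of the 8 genes. Tables were made with Python 3.11.15, pandas 2.3.3 and NumPy 2.4.6, and figures with matplotlib 3.10.9. Intervals are 95% exact Poisson limits.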

Additional observations from a re-analysis of the deposited data

Results flagged for a closer look

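The difference of the IL-2 change in intron deletion cells from that in the other 2 genotypes passed an interaction test (edgeR) for 5 values. In contacts these were Tcf7, with a difference of 0.66 on the log2 scale (adjusted p = 0.00445), and Ccr7, with 0.27 (adjusted p = 0.0286). In coverage they were Tcf7, with 0.34 (adjusted p = 7.48e-07), S1pr1, with 0.31 (adjusted p = 5.23e-06), and Ccr7, with 0.18 (adjusted p = 0.00906). Each genotype has 1 IL-2 and 1 control library, and the test's 1 residual degree of freedom comes from the upstream deletion and WT libraries alone, so the p-values assume that intron deletion cells vary as those do. The same test passed 28.2% of all coverage features and 3.8% of all windows. The intron deletion control library was the shallowest, with 38879 listed pairs against 56113 to 94922 in the upstream deletion and WT libraries. The part of this depth in the 5 differences was not tested.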

How the results depend on the processing

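No paired analysis was possible because the labels carry no replicate numbers, beyond the genotype term, which already sets IL-2 against control within each genotype. Of the alternatives other than a left-out library, 211 kept direction and side of the threshold, 13 reversed, 7 gained and 11 lost a call, and of those with a library left out 177 kept, 14 reversed, 40 gained and 21 lost. The cause was not tested.

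With libraries left out, gene windows called ranged over 0 to 842 for IL-2 (125 with all libraries), 213 to 1030 for the intron deletion (627) and 0 to 251 for the upstream deletion (6), and genes among the 7 over 0 to 2 (0), 1 to 5 (4) and 0 to 4 (0). Pairs ranged over 46 to 1825 (924), 494 to 3285 (3166) and 3 to 86 (22), and bins over 0 to 10125 (0), 3815 to 12228 (8592) and 1 to 7555 (314). DESeq2 called 54, 225 and 2 windows for IL-2, intron and upstream deletion, 1 gene of the 7 for the intron deletion, 3, 111 and 2 pairs, and for IL-2 and upstream deletion 2150 and 529 bins. For IL-2, windows numbered 61 at a mean of 100 contacts or more, 67 with no extension of the gene, 202 with 20 kb, 0 with unlisted pairs as 0, 20 with them as 19, 0 in coverage and 0 with no genotype term. For the intron deletion they numbered 311 with unlisted pairs as 0, with 0 of the 7 genes, and 1763 in coverage. For the upstream deletion they numbered 16 with DESeq2 size factors, 10 with 20 kb, 0 with unlisted pairs as 0 and 0 in coverage.

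With unlisted pairs as 0 the log2 IL-2 change reversed to 0.055 for Bach2, 0.45 for Foxo1 and -0.027 for Satb1, the upstream deletion change to -0.79 for Foxo1, and the difference of IL-2 changes to 1.89 for S1pr1 and -0.31 for Foxo1. With them as 19 the reversed values were 0.026 for the Bach2 IL-2 change, -0.031 for Ccr7 in the intron deletion, and differences of IL-2 changes of 0.30 for S1pr1 and 0.023 for Satb1. In coverage Ccr7 in the intron deletion was -0.051 and the S1pr1 difference 0.31, and with DESeq2 size factors the Satb1 difference was 0.0031. With libraries left out, IL-2 changes ranged over -0.076 to 0.032 for Bach2 contacts, -0.0657 to 0.0125 for Bach2 coverage and -0.28 to 0.18 for Foxo1. Intron deletion changes ranged over -0.085 to 0.19 for Ccr7 contacts, -0.14 to 0.037 for Ccr7 coverage and -0.075 to 0.78 for Foxo1, and upstream deletion changes over -0.0135 to 0.154 for S1pr1 and -0.25 to 0.60 for Foxo1. No library was left out of the test of IL-2 responses, which has 1 residual degree of freedom.

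A pair under 20 contacts is not seen, and the shallowest library sets which pairs are shared.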
